A study of Mus musculus with 8 samples.

Results

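Disease-associated microglia (DAM) genes are the transcripts that microglia switch on around amyloid plaques and in other degenerating tissue. The 10 members described here are Apoe, Lpl, Cst7, Spp1, Gpnmb, Clec7a, Itgax, Cd9, Lgals3 and Fth1, picked by symbol from the 53278 gene symbols of a bulk RNA sequencing count table. It covers the whole forebrain of 8 C57BL/6J males between 10 and 20 weeks of age. In the 4 depleted mice the food held PLX3397, an inhibitor of the CSF1R kinase that microglia need to survive, over 9 days. The food of the 4 control mice lacked it. The inhibitor acts in the whole animal and its target is also carried by other macrophages, so the groups differ in the drug as well as in microglia. No transgene was used, and nothing in the sources used here says that animals were pooled.

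In the DAM state microglia lower their homeostatic genes and raise genes of lipid handling, lysosomes and phagocytosis, in part through the lipid receptor TREM2. In the healthy brain several of these genes are also made by other cells. Astrocytes are the main source of Apoe, oligodendrocytes hold much of the ferritin and carry the tetraspanin CD9, and neurons make Lpl and Spp1. Bulk counts cannot say which cells held a transcript, so the results show how much of each remained in forebrains whose microglial transcripts were nearly gone. Fewer cells of a type and less RNA per cell cannot be told apart in such data.

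The promoters of 9 members were found in the RefSeq table (GRCm38.p6), and 3 are shown because they span the range of values below: Clec7a and Spp1 averaged lower in depleted mice, and Cd9 higher. Each stretch is the 250 bases before the annotated start, 5′ to 3′ on the gene's strand. Capitals mark GAGGAA, the core letters bound by the myeloid factor PU.1, or GGGCGG, a GC box, on either strand.
Clec7a promoter, chr6:129472780-129473029, minus strand: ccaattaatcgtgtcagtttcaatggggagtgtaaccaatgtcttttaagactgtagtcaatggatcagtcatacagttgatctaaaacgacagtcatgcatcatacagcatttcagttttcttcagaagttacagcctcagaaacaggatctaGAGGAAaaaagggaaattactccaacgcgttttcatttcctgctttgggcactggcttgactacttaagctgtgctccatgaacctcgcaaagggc
Spp1 promoter, chr5:104434861-104435110, plus strand: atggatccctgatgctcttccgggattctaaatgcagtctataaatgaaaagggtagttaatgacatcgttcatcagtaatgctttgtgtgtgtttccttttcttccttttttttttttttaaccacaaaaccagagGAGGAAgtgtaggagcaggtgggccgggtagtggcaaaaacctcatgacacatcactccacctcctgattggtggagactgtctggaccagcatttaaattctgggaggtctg
Cd9 promoter, chr6:125494761-125495010, minus strand: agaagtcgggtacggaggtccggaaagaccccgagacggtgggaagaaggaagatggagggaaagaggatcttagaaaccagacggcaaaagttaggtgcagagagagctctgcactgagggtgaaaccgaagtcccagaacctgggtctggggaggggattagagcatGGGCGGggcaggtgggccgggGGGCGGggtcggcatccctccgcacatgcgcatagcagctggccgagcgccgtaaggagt
GAGGAA, searched on both strands, stood once each in the Apoe, Spp1 and Clec7a stretches and in none of the other 6, against 23.3% of 32851 promoters in the table. Of the 18 microglia core genes with a promoter entry, 10 held it. GGGCGG stood in 2 places in Cd9 and in 1 in Lgals3, and 32.7% of all promoters held it. TATAAA, held by 12.4% of all promoters, stood in those of Spp1 and Fth1. The G and C share was 42.0% in Clec7a and 43.6% in Spp1, but 61.6% in Cd9 (median of all promoters 52.4%). In the 3 printed stretches no match overlaps another. Apoe had 3 promoter entries, and Spp1, Clec7a and Fth1 had 2 each. For each gene the entry nearest the start of the annotated gene was used, and other starts are not described. These are matches of letters only.

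Microglial transcripts were low in every depleted library. The 24 microglia core genes, homeostatic and lineage markers, summed to between 28.9 and 36.7 CPM (counts relative to the library's total, scaled with TMM) in depleted mice and to between 400.4 and 487 CPM in control mice. All 24 fell in edgeR's quasi-likelihood test (adjusted p under 0.05 over all genes), with a median of 3.07% of the control level left. Csf1r, the gene of the drug target, left 2.11% (95% interval 1.31% to 3.41%), P2ry12 4.40%, Cx3cr1 1.48% and Tmem119 4.90%. Total counts ranged from 48455538 to 68406688 per mouse. Libraries also differed in the tissue they held: 2 mice of each group had at least 1249 counts of Hcrt, a hypothalamic gene, and the other 4 mice had at most 12. This split is not clean. Hypothalamic markers summed to 56.0 CPM in depleted mouse 4, which was low in Hcrt. They summed to 3.81 to 8.46 CPM in the other mice low in Hcrt, and to at least 134 CPM in the rest. Striatal markers differed too, with a positive fold change for 8 of 8 genes, although in edgeR 0 passed and 7 were under 0.05 before adjustment. Neuronal markers, which the tissue label calls for, summed to at least 6493 CPM in every library.

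No member passed the test in either direction. Of the 7 members with enough counts to test, 0 passed as lower, where 1.11% of the 20140 genes tested did, and 0 passed as higher, where 0.0546% did. With so few members these counts do not set them apart from other genes. DESeq2 also called 0 of the 7, beside 1.72% of all genes lower and 0.586% higher, and limma-voom 0 of the 7, beside 1.12% lower and 0.0447% higher. In edgeR 1 member (Lpl) had an unadjusted p under 0.05, against 11.0% of all genes. The median log2 fold change of depleted over control was 0.21 over the 7 members and -0.00038 over all genes tested. Cst7, Clec7a and Itgax had too few counts to pass the filter. They are described by their counts and by an edgeR fit without the filter, in which none of them passed. The lower bound of each tested member's 95% interval, from 29.6% of the control level for Spp1 to 100.2% for Lpl, can be set against the core genes. For Apoe, Lpl, Gpnmb, Cd9, Lgals3 and Fth1 it lay above the upper bound of all 24 core genes, and for Spp1 above that of 19.

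**Figure D1:**
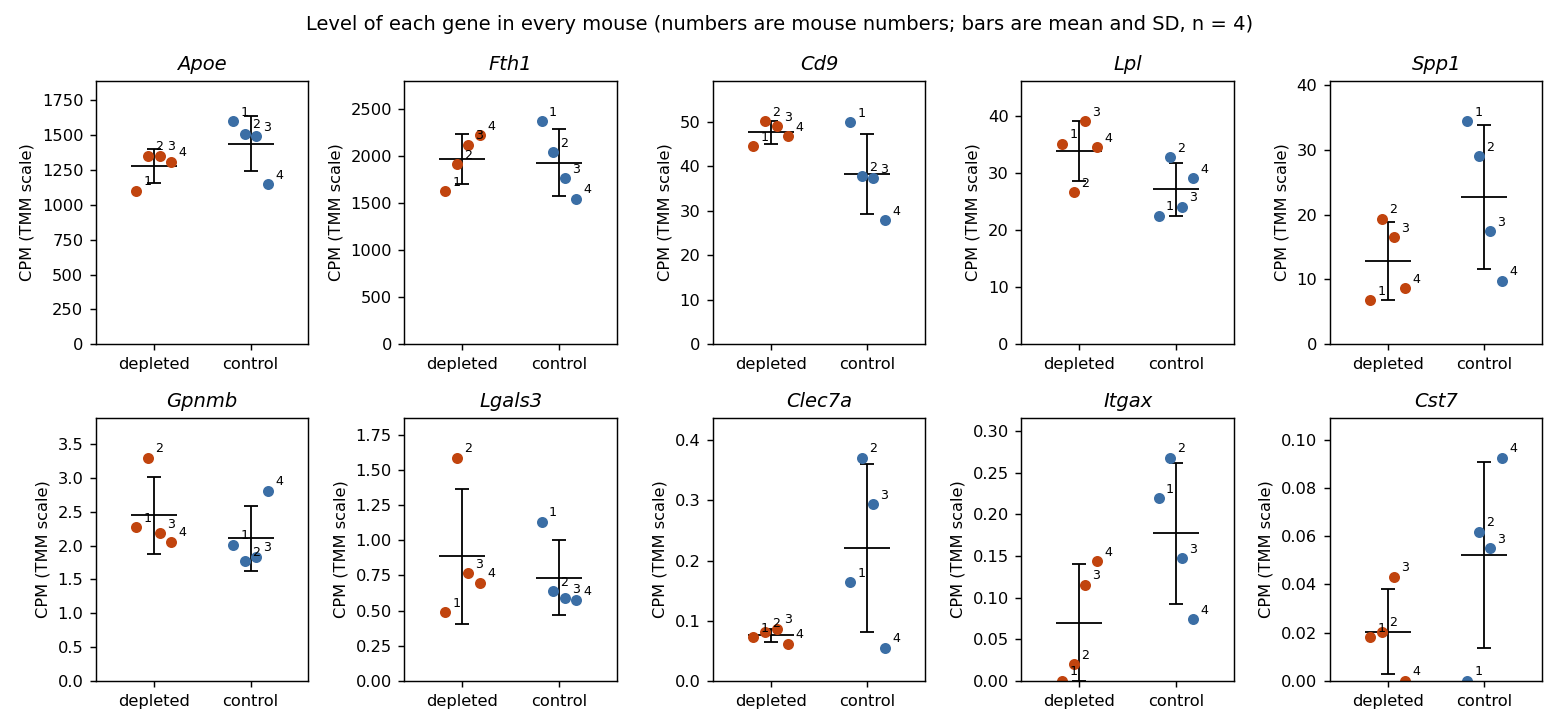
Level of each of the 10 members in CPM on the TMM scale, 1 point per mouse, with mouse numbers, the mean and the SD of 4 mice (depleted left, control right; each panel has its own axis from 0). The 2 groups overlap in all 10 panels, and they were apart in only 5.77% of the 20140 genes tested.

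Apoe encodes apolipoprotein E, the main carrier of lipids between brain cells (chromosome 7, 19696109 to 19699188, mm10, minus strand). It had 1103, 1354, 1354 and 1309 CPM in depleted mice 1 to 4, against 1601, 1511, 1493 and 1151 CPM in control mice 1 to 4. Depleted mouse 1 and control mouse 4 stood lowest and the groups overlapped. The means were 1280 ± 120.0 CPM in depleted and 1439 ± 198 CPM in control mice (SD, n = 4 each). The fit left 89.0% of the control level (95% interval 74.1% to 107%; log2 fold change -0.17, SE 0.12, edgeR adjusted p = 0.659). Apoe took between 0.107% and 0.137% of all counts in depleted libraries and between 0.113% and 0.161% in control libraries. Lrp1, a receptor that takes up apolipoprotein E, left 91.4% (82.1% to 102%), without passing. Among the mice with Hcrt counts the log2 fold change of Apoe was -0.15, and among those without it was -0.18.

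Lpl encodes lipoprotein lipase, which releases fatty acids from lipoproteins (chromosome 8, 68880491 to 68907448, plus strand). Its level was 35.2, 26.6, 39.1 and 34.6 CPM in depleted mice 1 to 4 and 22.5, 32.8, 24.2 and 29.2 CPM in control mice 1 to 4. Depleted mice 1, 3 and 4 lay above every control mouse, and depleted mouse 2 lay within the control range. The log2 fold change was 0.32 (SE 0.14, edgeR adjusted p = 0.453, unadjusted p = 0.0485), or 125% of the control level (100.2% to 155%). Summed striatal markers were 2188, 689, 2735 and 2209 CPM in depleted mice 1 to 4 and 258, 1416, 904 and 539 CPM in control mice 1 to 4, so in each group the mouse with the least striatal signal was also that with the least Lpl. With the mean log2 CPM of those 8 markers as a covariate, the log2 fold change of Lpl was 0.02 (95% interval -0.27 to 0.31). It was 0.21 among mice with Hcrt counts and 0.44 among those without. Striatal sums of depleted mice 1, 3 and 4 lay above every control mouse, so the covariate fit cannot tell tissue from treatment. The part of striatal tissue in the value of Lpl was not tested beyond that fit. Gpihbp1, the anchor of lipoprotein lipase on capillaries, had 1 count in all depleted and 3 in all control libraries.

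Spp1 encodes osteopontin, a secreted phosphoprotein that binds integrins and CD44 (chromosome 5, 104435118 to 104441050, plus strand). It varied widely between mice, with a coefficient of variation of 47.2% in depleted and 49.1% in control mice. Levels were 6.78, 19.3, 16.5 and 8.66 CPM in depleted mice 1 to 4 against 34.4, 29.0, 17.4 and 9.80 CPM in control mice 1 to 4. Depleted mice 1 and 4 stood below every control mouse, and the other depleted mice stood inside the control range. The means were 12.8 ± 6.04 CPM in depleted and 22.7 ± 11.1 CPM in control mice (SD, n = 4 each). The fit left 56.6% of the control level (29.6% to 108%; log2 fold change -0.82, SE 0.42, edgeR adjusted p = 0.513).

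The 2 kinds of library, with 2 mice per group in each, gave different values for Spp1 with overlapping intervals. Among the mice with Hcrt counts the log2 fold change was -0.37 (95% interval -0.96 to 0.22), with 19.3 and 16.5 CPM in depleted and 29.0 and 17.4 CPM in control mice. Among the mice without them it was -1.51 (-2.78 to -0.25, adjusted p = 0.382 in edgeR), with 6.78 and 8.66 CPM in depleted and 34.4 and 9.80 CPM in control mice. The difference between both values was not tested. Meningeal fibroblast markers summed to 47.2, 116, 62.2 and 51.9 CPM in depleted mice 1 to 4, against 124, 86.8, 94.9 and 83.2 CPM in control mice 1 to 4, and with their score as a covariate the log2 fold change was -0.34 (-1.12 to 0.44). With the oligodendrocyte score as a covariate it moved the other way, to -1.67 (-2.58 to -0.75, adjusted p = 0.0741 in edgeR). Spp1 shares 309 exon bases with the gene Gm42793 on the same strand, so its counts may be split.

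Partners of osteopontin had mixed values. The integrin subunit gene Itgb5 fell to 21.5 ± 1.71 CPM in depleted mice, against 37.8 ± 2.83 CPM in control mice (log2 fold change -0.82, SE 0.08, edgeR adjusted p = 3.75e-04). Its groups did not overlap. Cd44, the other class of osteopontin receptor, stood at 69.4% of the control level (40.8% to 118%, log2 fold change -0.53) and did not pass. Its value depended on the libraries: it passed as lower at -1.02 without depleted mouse 2 and at -1.30 among the mice without Hcrt counts, but was 0.0985 among the mice with them and 0.0664 with the striatum score as a covariate. Integrin subunit genes Itgav (0.24), Itgb3 (-0.28), Itga4 (-0.75) and Itga9 (0.35) did not pass either.

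Cd9 encodes a tetraspanin, a membrane organiser with 4 transmembrane passes (chromosome 6, 125460266 to 125494791, minus strand). It had 44.6, 50.2, 49.1 and 46.8 CPM in depleted mice 1 to 4, against 49.9, 37.8, 37.4 and 27.9 CPM in control mice 1 to 4. The depleted mice were close together, with a coefficient of variation of 5.24% against 23.6% in control mice, and only control mouse 1 reached their range. The log2 fold change was 0.32 (95% interval -0.01 to 0.64, edgeR adjusted p = 0.464), or 125% of the control level (99.6% to 156%).

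Among oligodendrocyte markers all 10 had a positive fold change, with a median log2 fold change of 0.46, but 0 passed in edgeR and 7 had an unadjusted p under 0.05. Their summed level was 6864 to 10210 CPM in depleted and 4383 to 8483 CPM in control mice, and control mouse 4, lowest in Cd9, was lowest here too. With the oligodendrocyte score as a covariate the log2 fold change of Cd9 was 0.01 (-0.26 to 0.29). Among mice with Hcrt counts it was 0.40, and among those without 0.24. Markers of oligodendrocyte precursors, the same lineage, had the opposite sign in 8 of 8 genes, with a median log2 fold change of -0.48. Olig1 and Olig2 were nearly level, at -0.02 each, and 3 fell: Pdgfra (-0.98), Cspg4 (-0.86) and Matn4 (-1.005). The part of either cell type in the value of Cd9 was not tested beyond the covariate fit. Cd81, a tetraspanin that associates with CD9, stood at 293 ± 26.5 CPM in depleted and 294 ± 37.7 CPM in control mice. Both genes share exon bases with an annotated gene on the opposite strand, 218 bases in Cd9 and 104 in Cd81.

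Fth1 encodes the heavy chain of ferritin, the ferroxidase subunit of the iron store (chromosome 19, 9980598 to 9985098, plus strand). It was the most abundant member by CPM, at 1623, 1910, 2115 and 2218 CPM in depleted mice 1 to 4 and 2366, 2035, 1762 and 1542 CPM in control mice 1 to 4. The groups covered nearly the same range. The fit left 102% of the control level (81.3% to 128%; log2 fold change 0.03, SE 0.15, edgeR adjusted p = 0.965). Ftl1, the ferritin light chain gene, left 99.8% (80.7% to 123%), and the iron genes Tfrc (0.01), Trf (0.20), Slc40a1 (-0.20), Slc11a2 (-0.02), Ireb2 (0.03), Aco1 (0.02), Hmox1 (0.11) and Ncoa4 (0.08) did not pass on the log2 fold change scale. Both ferritin genes have processed copies in the genome whose reads can be counted elsewhere, so their levels are uncertain. The log2 fold change of Fth1 was 0.09 among mice with Hcrt counts and -0.02 among those without.

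**Figure D2:**
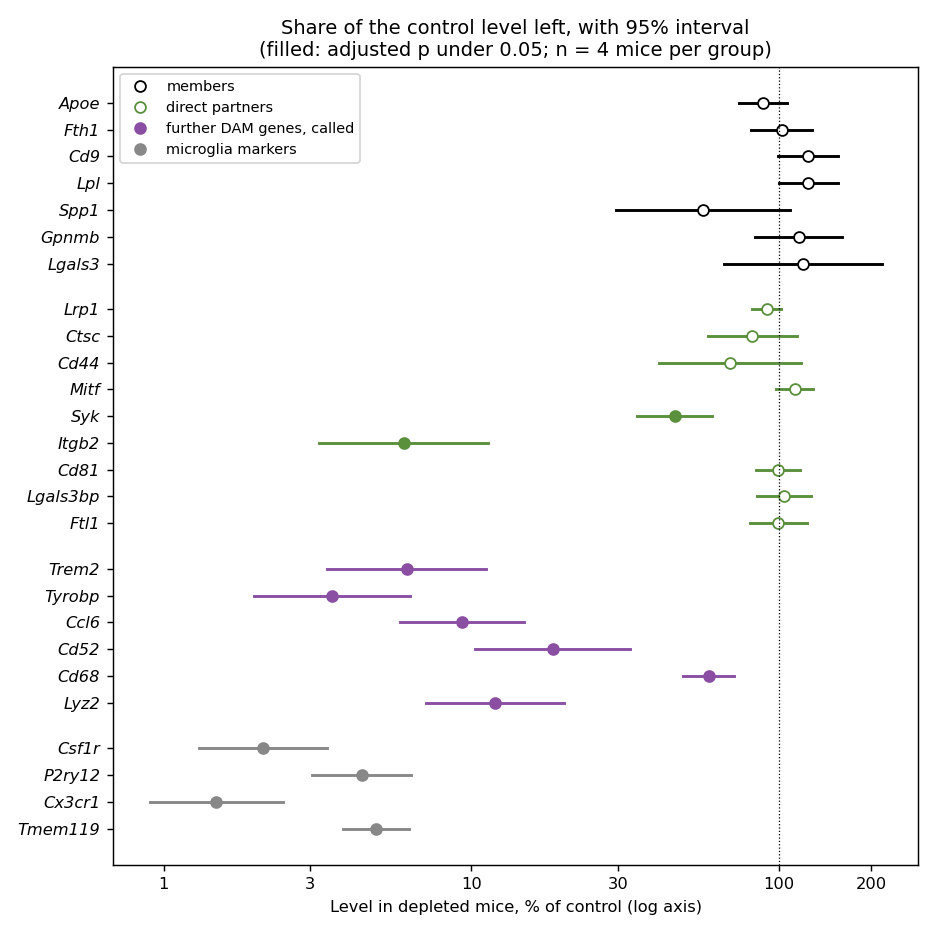
Level in depleted mice as a percentage of control (log axis) with its 95% interval from the edgeR fit, for the 7 tested members, the 9 tested direct partners, the 6 further DAM genes that fell and 4 microglia markers. The intervals of 6 members include 100% and that of Lpl starts at 100.2%, whereas the microglia markers lie between 1.48% and 4.90%.

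Gpnmb encodes a transmembrane glycoprotein of lysosomes and melanosomes (chromosome 6, 49036546 to 49070929, plus strand). It had 2.27, 3.29, 2.18 and 2.06 CPM in depleted mice 1 to 4 and 2.01, 1.77, 1.84 and 2.81 CPM in control mice 1 to 4. Depleted mouse 2 and control mouse 4 stood above the rest of their groups. The log2 fold change was 0.21 over all mice, 0.60 among mice with Hcrt counts and -0.15 among those without, so its direction was not the same in both. The fit left 116% of the control level (84.0% to 160.2%; edgeR adjusted p = 0.775). Mitf, a transcription factor gene that can drive Gpnmb, stood at 113% (98.0% to 129%) without passing, although its groups did not overlap, as in 5.77% of all genes tested.

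Lgals3 encodes galectin-3, a lectin of phagocytes that binds damaged lysosomes (chromosome 14, 47367751 to 47386160, plus strand). Counts were 27, 78, 53 and 34 in depleted mice 1 to 4, against 62, 31, 32 and 31 in control mice 1 to 4. Depleted mouse 2 and control mouse 1 were high and the other 6 mice overlapped. The means were 0.885 ± 0.482 CPM in depleted and 0.733 ± 0.268 CPM in control mice (SD, n = 4 each), and the fit left 120% (66.5% to 216%), an interval that includes both lower and higher levels. Its log2 fold change was 0.26 over all mice, but 0.92 among mice with Hcrt counts and -0.52 among those without. Lgals3bp, which encodes a secreted glycoprotein that binds galectin-3, stood at 104% (84.9% to 128%). Among the other galectin genes Lgals9 fell to 3.32 ± 0.135 CPM in depleted mice, against 5.21 ± 0.732 CPM in control mice (log2 fold change -0.65, SE 0.13, edgeR adjusted p = 0.0428), but passed in 7 of 22 alternatives. Lgals1 (-0.21) and Lgals8 (0.08) did not pass.

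Clec7a encodes Dectin-1, the beta-glucan receptor of phagocytes (chromosome 6, 129461591 to 129472779, minus strand, annotated as a polymorphic pseudogene). Counts were 4, 4, 6 and 3 in depleted mice 1 to 4, against 9, 18, 16 and 3 in control mice 1 to 4. All depleted mice lay at the level of the lowest control mouse or within 3 counts of it. Summed counts, 17 in depleted and 46 in control mice, left 35.2% (exact 95% interval of the counts 18.9% to 62.6%, for counting error only). Over mice the log2 CPM difference, which the prior count of 2 draws towards 0, was -0.998 (exact two-sided permutation test, p = 0.143). In the edgeR fit without the count filter the log2 fold change was -1.51 (95% interval -2.70 to -0.32). That fit gave an unadjusted p of 0.0166 and an adjusted p of 0.413.

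Syk, the signalling kinase of Dectin-1, had 1.67 ± 0.383 CPM in depleted and 3.66 ± 0.465 CPM in control mice (log2 fold change -1.12, SE 0.18, edgeR adjusted p = 0.0130). Card9, the adaptor downstream of Syk, had 2.52 ± 0.182 CPM in depleted and 3.80 ± 0.257 CPM in control mice (log2 fold change -0.59, adjusted p = 0.0448). Syk passed in 14 and Card9 in 5 of 22 alternatives, and 87 exon bases of Card9 are shared with a gene on the opposite strand.

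Itgax encodes CD11c, the integrin alpha chain of dendritic cells and activated microglia (chromosome 7, 128129547 to 128150657, plus strand). Counts were 0, 1, 8 and 7 in depleted mice 1 to 4, against 12, 13, 8 and 4 in control mice 1 to 4. Depleted mice 1 and 2 were at or near 0, and the other depleted mice matched the lower controls. The sums, 16 in depleted and 37 in control mice, left 41.2% (exact counting interval 21.4% to 75.9%), and the difference over mice was -1.19 log2 CPM (exact two-sided permutation test, p = 0.114). Its obligate partner Itgb2, the beta chain of leukocyte integrins, fell to 0.182 ± 0.118 CPM in depleted mice, against 3.12 ± 0.646 CPM in control mice (log2 fold change -4.05, SE 0.41, edgeR adjusted p = 4.70e-04), which leaves 6.03%. Markers of dendritic cells summed to 19.0 to 23.0 CPM in depleted and 20.4 to 25.3 CPM in control mice, and 0 of the 3 tested passed in edgeR, with 0 under an unadjusted p of 0.05. Flt3 and Zbtb46 made up nearly all of that sum, so it describes those genes rather than dendritic cells as a whole. Of the other 4 markers, Clec9a averaged 0.223 CPM in depleted and 0.296 CPM in control mice, and Cd209a, Xcr1 and Ccr7 each averaged at most 0.107 CPM in either group.

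Cst7 encodes cystatin F, an inhibitor of lysosomal cysteine proteases (chromosome 2, 150570415 to 150578944, plus strand), and was barely detected in either group. Counts were 1, 1, 3 and 0 in depleted mice 1 to 4 and 0, 3, 3 and 5 in control mice 1 to 4. The sums, 5 in depleted and 11 in control mice, left 43.3% (exact counting interval 11.8% to 135%). That interval includes the full control level and lies above the core genes' median of 3.07%, but it covers counting error only. Over mice the exact two-sided permutation test gave p = 0.257. Ctsc, the cathepsin whose activity cystatin F limits, stood at 82.1% (58.9% to 114%) and did not pass. For these 3 rare members the smallest p that the permutation test of 4 against 4 mice allows is 0.0286.

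Per kilobase of exon the members kept 1 order in both groups. Apoe averaged 599 and Fth1 567 CPM per kilobase in depleted mice, and 673 and 555 in control mice, and the ranges of these neighbours overlapped. Cd9 followed with 23.3 in depleted and 18.7 in control mice, then Spp1 with 7.77 in depleted and 13.7 in control mice, whose ranges overlapped with those of Cd9 only in control mice. Lpl had 3.23 in depleted and 2.59 in control mice, clear of both its neighbours. Lgals3 (0.476 in depleted, 0.395 in control mice) and Gpnmb (0.376 in depleted, 0.324 in control mice) overlapped. So did the neighbours Clec7a (0.0286 in depleted, 0.0838 in control mice), Cst7 (0.0207 in depleted, 0.0531 in control mice) and Itgax (0.0146 in depleted, 0.0369 in control mice). Lengths are the union of all annotated exons, which lowers genes with long, little-used exons.

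**Figure D3:**
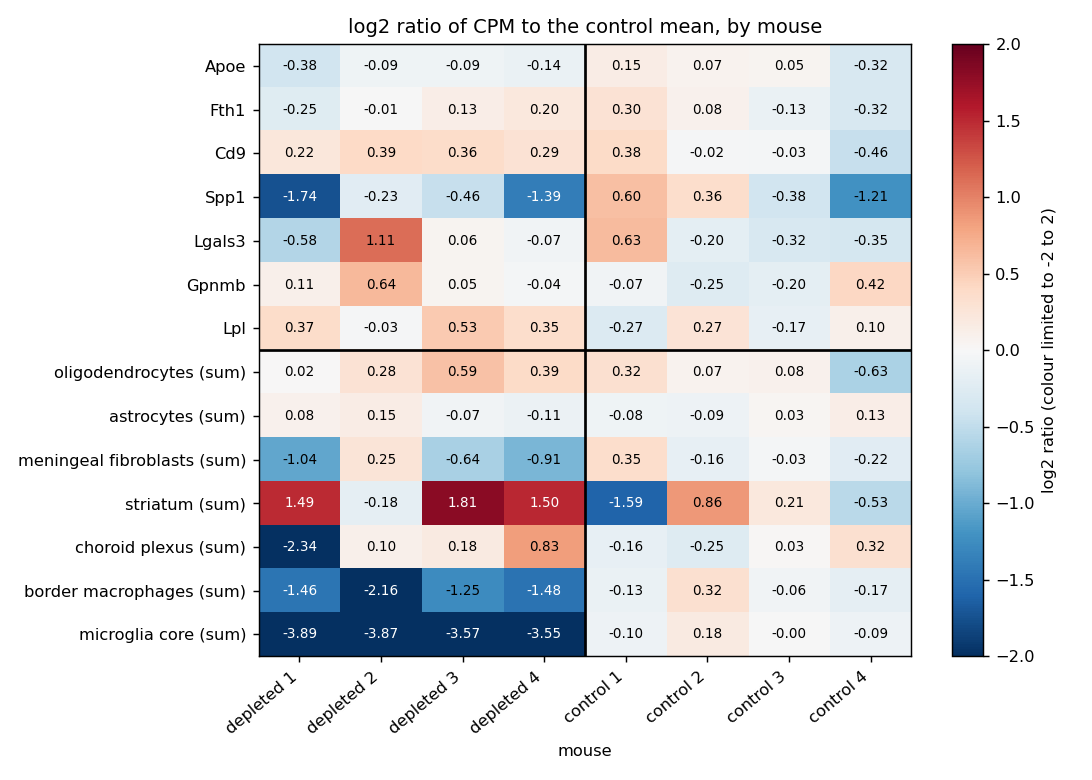
Log2 ratio of each mouse's CPM to the control mean for the 7 tested members (above the line) and for summed marker lists (below it), depleted mice left and control mice right. Microglia core sums are low in all 4 depleted mice, while Apoe, Fth1, Cd9, Spp1 and Lgals3 are high in control mouse 1.

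Members also varied between mice of the same group. Apoe, Spp1, Cd9, Lgals3 and Fth1 were each highest in control mouse 1 among controls, and Apoe, Spp1, Gpnmb, Cd9 and Lgals3 were each highest in depleted mouse 2 among depleted mice. These 2 libraries had the lowest striatal sums of their groups, 689 CPM in depleted mouse 2 and 258 CPM in control mouse 1, and the highest meningeal fibroblast sums, 116 CPM in depleted mouse 2 and 124 CPM in control mouse 1. The part of either in the members' values was not tested beyond the covariate fits. Across all genes tested, 26.8% were highest in depleted mouse 2 and 27.8% in control mouse 1 within their group. Without both mice the log2 fold changes were -0.14 for Apoe, 0.34 for Lpl, -0.81 for Spp1, 0.45 for Cd9, 0.16 for Fth1, 0.02 for Gpnmb and 0.12 for Lgals3, and 0 members passed.

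Likeness of pattern was measured as the root mean square difference of log2 CPM over the 8 mice, each profile centred on its control mean, among the 15584 genes of at least 1 CPM. Nearest to Apoe were Amdhd2 (0.037) and Ankrd24 (0.038), with Iscu next at 0.047. Nearest to Fth1 were Gm28437, Ggt1 and Sem1 (0.047 to 0.060). Cd9 lay nearest to Gal3st1, Tspan15 and H2-K2 (0.082 to 0.11), and Lpl to Gnb5, Mn1 and Kcnip2 (0.072 to 0.088). Spp1 had no near match, with Piezo2, P2rx5 and Tcim at 0.28 to 0.29, and Gpnmb lay between, with Mastl, Pcdh9 and Zfp712 at 0.15 to 0.16.

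The rest of the DAM signature held genes that passed as lower in depleted mice and genes that did not pass, which need not be unchanged. Of 28 further DAM genes, 25 were tested, 6 fell and 0 rose, and 19 did not pass. The list's median log2 fold change was -0.07, beside -0.00038 over all genes. Trem2, the lipid receptor of the state, had 0.625 ± 0.361 CPM in depleted and 10.2 ± 2.34 CPM in control mice (log2 fold change -4.02, SE 0.38, edgeR adjusted p = 3.37e-04). Its adaptor gene Tyrobp fell to 0.261 ± 0.171 CPM in depleted mice, against 7.71 ± 1.38 CPM in control mice (log2 fold change -4.83, SE 0.38).

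The chemokine gene Ccl6 (9.37% left), the lysozyme gene Lyz2 (11.9%) and the surface glycoprotein gene Cd52 (18.4%) fell as well. The lysosomal gene Cd68 fell to 4.51 ± 0.732 CPM in depleted mice, against 7.63 ± 0.275 CPM in control mice, or 59.2% left, and passed in 16 of 22 alternatives. Ccl4, another chemokine gene, had 0 counts in depleted and 18 in control mice. Lysosomal cathepsin genes Ctsb (0.07), Ctsl (0.01), Ctsz (-0.07), Ctsa (-0.04) and Ctsd (-0.31, adjusted p = 0.0811 in edgeR) did not pass on the log2 fold change scale. Neither did the growth factor genes Csf1 (0.22) and Igf1 (-0.17), the phagocytic receptor gene Axl (0.005) and the MHC light chain gene B2m (-0.26).

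**Figure D4:**
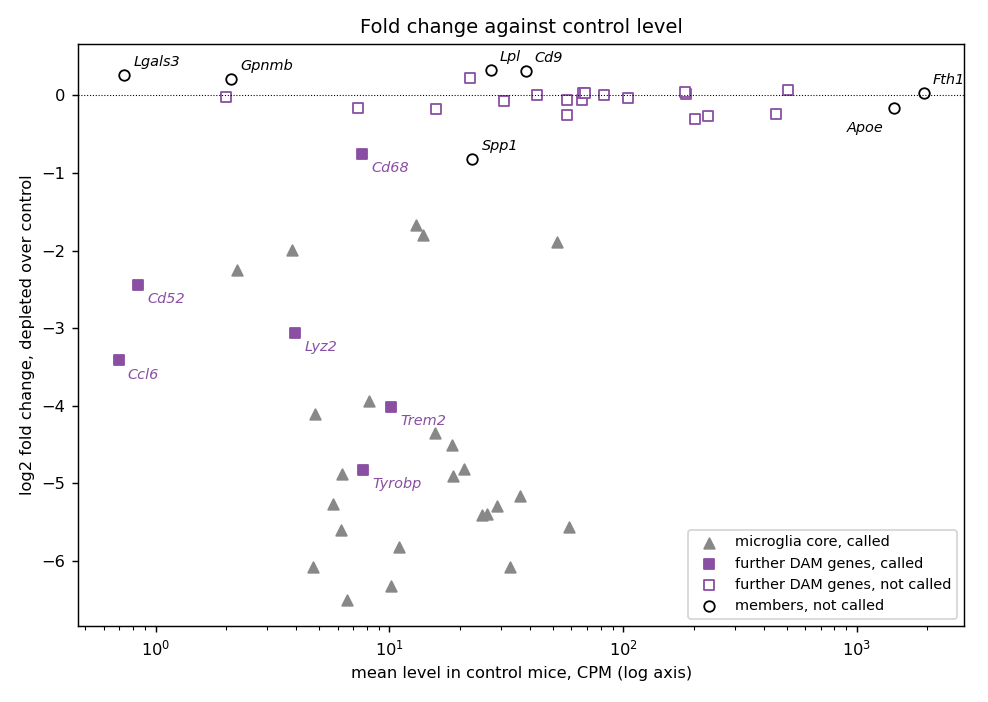
Log2 fold change of depleted over control (vertical axis) against the mean CPM in control mice (log axis) for 7 members, 25 further DAM genes and 24 microglia core genes. Filled symbols passed in edgeR at an adjusted p under 0.05. Members lie at log2 fold changes between -0.82 and 0.32, and all 6 further DAM genes that passed lie at or below 10.2 CPM in control mice.

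Among the 39 partner genes, 38 were tested, 5 fell (Itgb5, Itgb2, Syk, Lgals9 and Card9) and 0 rose, with a list median of -0.02. Itgb5 and Itgb2 passed in all 22 alternatives. On the log2 fold change scale the lipoprotein receptor gene Vldlr stood at 0.23, the lipid exporter genes Abcg1 at 0.18 and Abca1 at -0.11, and Clu, another apolipoprotein gene of astrocytes, at 0.04, and none of these passed. Markers of astrocytes summed to 3604 to 4326 CPM in depleted and 3646 to 4246 CPM in control mice, and 0 of 12 passed in edgeR. Border macrophage markers summed to 3.17 to 5.96 CPM in depleted and 12.6 to 17.7 CPM in control mice, in which 3 of the 5 tested fell. Stab1 carried the control sum, at 2.18 ± 0.513 CPM in depleted and 11.7 ± 1.89 CPM in control mice. Mrc1 (18.7% left) and F13a1 (21.9% left) were the other markers that fell. Lyve1 did not pass, at 66.8% (32.1% to 139%). Cd163 had the opposite sign without passing, at 2.15 ± 1.05 CPM in depleted and 0.956 ± 0.466 CPM in control mice (log2 fold change 1.184, edgeR adjusted p = 0.380, unadjusted p = 0.0255). Blood leukocyte markers summed to 0.555 to 1.27 CPM in depleted and 1.11 to 2.04 CPM in control mice. The part of these cells in the members' values was not tested.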

How the data were processed

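The deposited table gives, for each gene symbol, raw counts from the authors in 8 columns, 1 per mouse. FastQC, MultiQC, STAR, DESeq2, DESeq and the mm10 build are named per the submitters' processing notes, with no versions; annotation, strand setting and counting tool: not given in the sources used here. Genes were filtered with filterByExpr (20140 of 53278 symbols kept), given TMM factors, and depleted mice were compared with control mice by the quasi-likelihood test of edgeR 4.0.16 (R 4.3.3), without covariates, with Benjamini-Hochberg adjustment over all genes tested. Intervals are 95%, from the fold change, its F statistic and the total degrees of freedom of the test (residual plus prior). Log2 CPM used a prior count of 2. DESeq2 1.42.0 and limma-voom (limma 3.58.1) were alternatives, with other scalings, filters, covariates, blocks and leaving out each mouse. Positions and exon lengths are those of GENCODE M21 on the same build, which named 93.3% of the symbols. Replicates differed by at least 11.2 times the sampling noise per gene, so each library counted once. The steps were tested on simulated counts. Named genes were all members, 4 microglia markers, genes of the further DAM and partner lists past the threshold, 1 direct partner per member and the 3 nearest profiles. Other list genes named with a log2 fold change were chosen after their values were seen. The members and lists were chosen with earlier results of these data known. The values of 1 partner gene are not reported here.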

Additional observations from a re-analysis of the deposited data

Results flagged for a closer look

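Of 20 sets of 4 mice screened (10 members in each group), 2 held a mouse far from the other 3, where chance alone marks about 1 in 20. Gpnmb stood at 3.29 CPM in depleted mouse 2, while mice 1, 3 and 4 of that group lay between 2.06 and 2.27 CPM. Lgals3 stood at 1.13 CPM in control mouse 1, while mice 2, 3 and 4 lay between 0.573 and 0.638 CPM.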

How the results depend on the processing

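None of the 7 members passed as higher in any of 22 alternatives. As lower, 1 passed in 1 of them, against 0 in the fit reported: Apoe at -0.43 (edgeR adjusted p = 0.0419) with the oligodendrocyte score as a covariate. The covariates of the meningeal and oligodendrocyte scores, the fits within mice with or without Hcrt counts and the fit without control mouse 1 and depleted mouse 2 were added after seeing the data. The 223 genes lower became 346 in DESeq2, 66 in mice with Hcrt counts and 178 to 441 leaving out 1 mouse, the most without depleted mouse 2. The 11 higher became 25 with no filter, 6 at 1 CPM in 4 samples, 118 in DESeq2, 4 with a replicate block, 2 with the striatum, 7 with the meningeal and 129 with the oligodendrocyte score, 138 without control mouse 1 and depleted mouse 2, 0 in mice with and 128 in mice without Hcrt counts, and 2 to 243 leaving out 1 mouse. Of further DAM genes 2 rather than 6 fell in mice with Hcrt counts. Of partners, 5 lower became 3 with library size alone, and 2 with a replicate block, the striatum score, the meningeal score, the 2 named mice left out, or mice with Hcrt counts alone (2 to 6 leaving out 1 mouse). Partners higher were 1 rather than 0 in DESeq2 and with the meningeal or oligodendrocyte score (0 to 1 leaving out 1 mouse). With the replicate number as a block 161 genes were lower, and same-numbered mice correlated at -0.27, -0.31, 0.59 and -0.06. Hcrt counts were at least 1249 in mice 2 and 3 of both groups and at most 12 in mice 1 and 4 of both groups. These correlations cannot settle whether mice of the same number share a pairing. Signs turned for Gpnmb (-0.15), Lgals3 (-0.518), Fth1 (-0.0184), Cd81 (0.016) and Ftl1 (0.102) in mice without Hcrt counts, Cd44 with them (0.0985) and with the striatum score (0.0664), Cd81 with the meningeal score (0.0873), Lgals3 (-0.0611), Fth1 (-0.283) and Lgals3bp (-0.16) with the oligodendrocyte score, Lgals3bp (-0.0282) and Ftl1 (0.0589) without the 2 named mice, and Ftl1 with Hcrt as a block (0.000499). Leaving out 1 mouse gave Fth1 -0.0629 to 0.14, Lgals3 -0.16 to 0.55, Cd81 -0.095 to 0.048, Lgals3bp -0.0246 to 0.14 and Ftl1 -0.0918 to 0.10. The cause was not tested. Depth limits Cst7, Clec7a and Itgax, with 5 to 46 counts per group.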
